A study of Mus musculus with 20 samples.

Results

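Mpzl2, Foxd4, Krt20, Dsg2, Zfp804a, Tmprss11a and Fut9 are 7 genes that mark the ES tumors of this series. They were chosen by their signals in these same arrays, as genes that were bright in ES tumors and dim in CDS tumors. They are 7 of the 17097 genes on the array with a symbol and all 7 are among the 12343 genes tested. The array carries 17 of its 45141 probe sets for them, and each of the 17 was followed. Their difference between ES and CDS tumors is therefore a description and was given no test, and the same holds against the empty-vector cultures. What the choice did not use, and was tested here, is their response to CIC-DUX4 in culture. That test is limited for Foxd4, Krt20, Zfp804a, Tmprss11a and Fut9. They were dim on every culture array where dim and bright signals can be told apart. Only a rise to a bright signal could have been seen for them.

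Expression was measured on 20 Affymetrix mouse arrays, 1 sample each. The ES tumors (6 arrays, numbered 41, 46, 47, 48, 49 and 51) carry the tissue label Ewing sarcoma. The CDS tumors (6 arrays) carry the label CIC-DUX4 sarcoma, after the fusion of the repressor CIC with the transcription factor DUX4. Both tumor types had grown under the skin of Balb/c nude mice without treatment. Nude mice lack a thymus and so most T cells, but keep their vessels, macrophages and other stromal cells, so that tumor RNA holds a share from the host. The cells of origin and the driving oncogene of the ES tumors are unstated in the labels, and so are the strain and age of the donor cells and whether tumors shared a founding culture. The cultures were primary mesenchymal cells (eMC) in Iscove's modified DMEM with 15% FBS, collected 48 hours after infection with a retrovirus. That virus, a pMYs vector, carried CIC-DUX4 with GFP (eMC CIC-DUX4, 4 arrays, numbered 5 to 8) or GFP alone (eMC empty, 4 arrays, numbered 4 to 7), so GFP and viral infection are shared by both culture groups. Nothing says that the 4 arrays of a culture group came from separate cultures, and p-values there measure only the spread between samples. In bulk samples, fewer cells of a type and less RNA per cell cannot be told apart.

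The 7 genes differ in what they do, though some are known from epithelia and others from neural tissue. Mpzl2 (epithelial V-like antigen) encodes an immunoglobulin-domain protein of the cell surface that sticks to copies of itself on neighbouring epithelial cells. Dsg2 encodes desmoglein 2, a cadherin that bridges cells at desmosomes, the rivet-like junctions to which keratin filaments attach. Krt20 encodes keratin 20, a filament protein of gut lining, bladder umbrella cells and Merkel cells. Tmprss11a encodes a serine protease anchored in the membrane, of a family found on airway and skin epithelia. Foxd4 is a forkhead transcription factor of the early neural plate, and Zfp804a is a zinc finger gene expressed in neurons. Fut9 encodes a fucosyltransferase that builds the Lewis x sugar, well known from brain and embryonic stem cells. Ewing sarcoma itself is a small round cell sarcoma driven by EWSR1 fused to an ETS factor, usually FLI1. The fused protein binds repeats of GGAA, which is why GGAA was looked for in the promoters.

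RefSeq promoter sequences (build GRCm38.p6) were on hand for 4 of the 7 genes, Krt20, Zfp804a, Foxd4 and Tmprss11a. The first 3 are printed. They span the GGAA counts of the 4, and their CpG counts run from near the median of all promoters to far above it. Each run is the 250 bases before the gene's start, read 5′ to 3′ on the gene's own strand, with every GGAA, or TTCC where it lies on the other strand, in capitals. The Krt20 run is chr11:99438154-99438403 (minus strand), that of Zfp804a chr2:82053408-82053657 (plus strand) and that of Foxd4 chr19:24901017-24901266 (minus strand).
Krt20: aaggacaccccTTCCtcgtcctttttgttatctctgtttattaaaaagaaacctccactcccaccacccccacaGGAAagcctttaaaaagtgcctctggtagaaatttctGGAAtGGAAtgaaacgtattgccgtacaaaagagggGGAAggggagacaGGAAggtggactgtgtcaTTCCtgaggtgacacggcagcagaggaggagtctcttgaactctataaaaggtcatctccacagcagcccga
Zfp804a: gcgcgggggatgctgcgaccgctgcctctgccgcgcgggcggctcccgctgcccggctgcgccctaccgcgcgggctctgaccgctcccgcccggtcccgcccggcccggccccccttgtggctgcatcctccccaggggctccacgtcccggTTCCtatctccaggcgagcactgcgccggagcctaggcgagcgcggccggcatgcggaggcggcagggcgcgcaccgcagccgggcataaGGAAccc
Foxd4: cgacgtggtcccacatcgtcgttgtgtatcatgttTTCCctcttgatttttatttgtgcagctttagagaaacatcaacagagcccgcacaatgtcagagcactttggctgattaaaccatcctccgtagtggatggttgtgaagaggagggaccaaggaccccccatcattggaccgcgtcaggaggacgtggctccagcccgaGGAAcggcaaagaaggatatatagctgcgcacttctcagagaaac
These counts are for 300-base windows, from 250 bases before the start to 50 after it, on both strands. Krt20 held 7 GGAA cores, and 8.02% of the 32851 promoters held as many. Tmprss11a held 4, and Zfp804a and Foxd4 held 2 each, against a median of 3 over all promoters. At least 1 GGAA stood in 96.0% of all promoters, so its presence sets none of these genes apart. The tandem GGAAGGAA was in none of the 4, and in 3.79% of all promoters. Nor did any of the 4 hold the ETS-type core CCGGAA (14.9% of all promoters) or TGAATGAA and TGAATGGA (1.30% and 1.21%). These last are the only forms of the CIC site that were looked for. The promoters differ in make-up. Zfp804a had 45 CpG and 79.3% G and C, and 1.93% of promoters had as many CpG. Foxd4 had 12 CpG, Krt20 6 and Tmprss11a 4, against a median of 7. A match is a description of letters in a window and no site, and GGAA alone was counted after the promoters had been seen.

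The arrays share a trimmed mean but not a shape, and that bears on low signals. Each array has a dip, the point of lowest density between its dim and its bright probe sets, and a signal below the dip is called dim here. Bright probe sets made up 34.2 ± 4.76% of an ES array (SD, n = 6), 31.6 ± 17.1% of a CDS array (n = 6) and 17.9 ± 6.91% of an eMC empty array (n = 4). In eMC CIC-DUX4 they made up 51.1 ± 17.7%, over the 3 arrays where a dip exists. The array eMC CIC-DUX4 6 had none, and its median log2 signal of 7.03 was the highest of all 20. It stands apart wherever dim genes are read, so values are given with and without it. Medians over 5 were also found in eMC CIC-DUX4 5 and CDS 2. Actb, whose 3′ probes outshine its 5′ probes when RNA is broken, had an excess of 0.80 ± 0.36 log2 in CDS tumors and 0.25 ± 0.05 in ES tumors (SD, n = 6 each). RNA quality thus differs between the tumor groups, and its part in the differences below was not tested.

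The ES label was set against 14 known Ewing sarcoma markers, of which 5 (Fli1, Id2, Cav1, Pappa and Cd99) were above the dip in all 6 ES tumors. Fli1, Id2 and Cav1 were above the dip in every CDS tumor too, and Id2, Cav1 and Cd99 in every eMC empty array. The log2 of the 14 markers' summed linear signals was 13.24 to 14.15 in ES tumors and 14.50 to 15.25 in CDS tumors. The brightest markers weigh most in such a sum, and Fli1, given on its own below, is part of it. Gene by gene, 2 of the 11 markers tested were called higher in ES than in CDS tumors and 2 lower (limma). The median log2 fold change of the 11 was 0.19. After quantile normalization, which gives all arrays the same distribution, 3 were higher and 3 lower, with a median of -0.73. Nkx2-2, the homeodomain factor used to diagnose Ewing sarcoma, was above the dip in 1 of 6 ES tumors, with a lowest, median and highest log2 signal of 0.18, 0.64 and 5.78. Nr0b1, the nuclear receptor gene induced by EWS-FLI1 in human tumors, was above it in 0 of 6 (0.30, 0.41 and 1.05). The brighter probe set of Fli1 was lower in ES tumors than in CDS tumors, at 9.41 ± 0.74 against 13.01 ± 0.61 (SD, n = 6 each). The other Fli1 probe set was dim in all ES tumors, at 2.61 ± 0.34, against 9.82 ± 1.88 in CDS tumors. Whether these values bear on the label was not tested, since the driving oncogene of the ES tumors is unstated. The group is called by its title, ES.

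Mpzl2 was bright in all ES tumors and dim in all CDS tumors. Its probe set of the highest mean (1416236_PM_a_at) read 11.74, 13.15 and 14.13 (lowest, median and highest log2 signal) in ES tumors and 0.10, 0.67 and 2.29 in CDS tumors. Every ES tumor was bright and every CDS tumor dim, with no overlap. Against the dips of the CDS arrays the mean signal was at least 166-fold higher in ES tumors, and the fitted log2 difference was 11.24 ± 0.71 (SE). The 4 eMC CIC-DUX4 arrays read 9.41, 9.17, 8.75 and 8.77 and the 4 eMC empty arrays 3.46, 3.73, 3.38 and 3.85. Mpzl2 was thus bright in ES tumors, lower but still bright in CIC-DUX4 cultures and dim in eMC empty and CDS tumors, whose order below the dip is not read. The second probe set (1448265_PM_x_at) gave the same picture, with 10.51, 12.50 and 13.30 in ES tumors. The third (1416237_PM_at) did not. It ranged from 1.95 to 8.63 in ES tumors and was above the dip in 4 of 6.

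Dsg2, the desmosomal cadherin, was bright in all ES tumors and dim in all CDS tumors. Its probe set of the highest mean (1449740_PM_s_at) read 9.45, 12.20 and 13.04 in ES tumors, and 1.15, 1.61 and 2.83 in CDS tumors. That is at least 74.7-fold higher in ES tumors (fitted log2 difference 9.61 ± 0.82, SE, and 5.76 for the mean over its probe sets). In the cultures it read 6.12, 7.16, 2.17 and 2.12 with CIC-DUX4 and 2.48, 3.25, 2.58 and 1.88 with the empty vector. Arrays 5 and 6 of the CIC-DUX4 cultures stood above all empty-vector arrays, while 7 and 8 lay among them. These 2 are the arrays of high median. A second probe set (1439476_PM_at) followed it closely, with 10.17, 12.29 and 13.14 in ES tumors and 0.84, 1.43 and 2.62 in CDS tumors. Of the other 4 probe sets, 1425619_PM_s_at was above the dip in 5 of 6 ES tumors and 2 were above it in 2 of 6. The last, 1426153_PM_a_at, was dim in all ES tumors at 1.12 to 2.43 and is the only one of the 17 that missed the filter on low values.

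Krt20, the keratin of gut and bladder lining, had a single probe set. It read 10.62, 12.64 and 13.38 in ES tumors and 0.80, 1.58 and 3.08 in CDS tumors. The groups were far apart, with a signal at least 107-fold higher in ES tumors (10.09 ± 0.76 on the fitted log2 scale, SE). In eMC empty it read 1.78, 2.39, 1.66 and 0.47, dim on all 4 arrays. In eMC CIC-DUX4 it read 0.42, 5.71, 0.77 and 0.57, and only array 6 rose out of the range of the empty-vector arrays.

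Tmprss11a, the membrane serine protease, also had 1 probe set. Its ES values of 8.99, 11.12 and 12.94 were the most widely spread of the 7 (SD 1.47, n = 6). In CDS tumors it read 0.00, 0.28 and 1.77, and 2 of the 6 arrays list it at exactly 0. The signal was at least 39.5-fold higher in ES tumors (9.44 ± 0.91, fitted log2 difference with SE). In eMC empty it read 0.94, 1.27, 0.65 and 0.00, and in eMC CIC-DUX4 0.00, 3.89, 0.07 and 0.00. Again array 6 alone stood out among the cultures.

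Foxd4, the forkhead factor of the early neural plate, was the most evenly bright of the 7 in ES tumors (SD 0.74, n = 6). It read 11.49, 12.99 and 13.56 in ES tumors and 0.18, 1.45 and 2.53 in CDS tumors, at least 137-fold higher in ES tumors (10.70 ± 0.71, fitted log2 difference with SE). In eMC empty it read 1.45, 2.19, 1.14 and 0.83, and in eMC CIC-DUX4 0.33, 5.39, 0.33 and 0.22. Outside the ES tumors it was dim on every array that has a dip.

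Zfp804a, the neuronal zinc finger gene, read 9.9985, 11.76 and 12.87 in ES tumors with its brighter probe set (1443036_PM_at), against 0.38, 0.72 and 2.40 in CDS tumors. The signal was at least 63.7-fold higher in ES tumors (9.82 ± 0.83, fitted log2 difference with SE). The cultures read 0.79, 4.96, 0.30 and 0.44 with CIC-DUX4 and 1.34, 1.60, 0.82 and 1.09 without. The second probe set (1457361_PM_at) split the ES tumors. ES 46, 47 and 51 read 10.43, 9.65 and 10.52, ES 41 read 6.99, and ES 48 and 49 read 3.09 and 2.45, below their dips.

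Fut9, the Lewis x fucosyltransferase, read 9.73, 11.85 and 12.62 in ES tumors with its brightest probe set (1435308_PM_at) and 0.90, 1.56 and 2.49 in CDS tumors. It was at least 55.4-fold higher in ES tumors (9.31 ± 0.82, fitted log2 difference with SE). The cultures read 0.57, 5.70, 0.89 and 0.85 with CIC-DUX4 and 1.50, 2.13, 1.48 and 1.10 without. Both dimmer probe sets split the ES tumors as the second one of Zfp804a did. On 1457409_PM_at, ES 41, 46, 47 and 51 read 8.26 to 9.97, against 4.70 and 2.07 in ES 48 and 49. On 1450771_PM_at these 4 read 7.67 to 8.96, against 2.71 and 1.88.

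**Figure D1:**
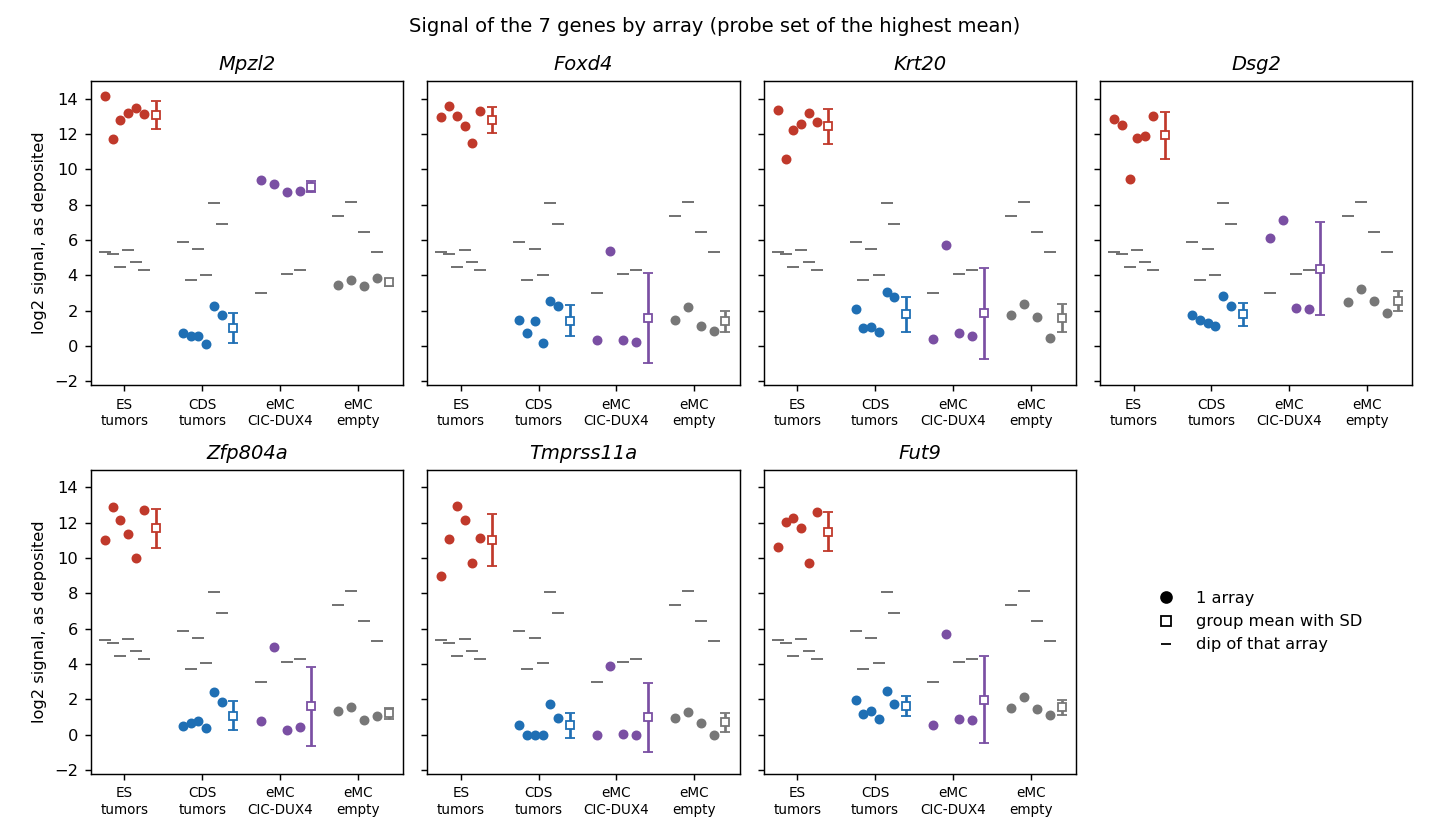
Log2 signal as deposited (vertical axis) of each gene's probe set of the highest mean, by group; points are arrays, open squares with bars are group means with SD, and black ticks mark the dip of each array (eMC CIC-DUX4 6 has none). All 6 ES tumors lie above their dips for all 7 genes, all CDS and eMC empty arrays lie below theirs, and Mpzl2 is the only one of the 7 above the dip in all 3 eMC CIC-DUX4 arrays that have one.

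Over the 17 probe sets, 16 passed the filter, 9 were above the dip in all 6 ES tumors and 10 had every ES tumor above every CDS tumor. Among those 10 is 1450771_PM_at of Fut9, where ES 48 and 49 lay below their dips, so that separation is not read. All 17 were dim in every CDS and eMC empty array. The disagreements between probe sets of a gene therefore lie among the ES tumors, and, for Mpzl2 and Dsg2, in the CIC-DUX4 cultures. Over all genes tested, each read by its probe set of the highest mean, 7.54% had their lowest ES tumor above their highest CDS tumor. Calls in ES against CDS tumors were 9.58% higher and 11.2% lower. A gene is called here at a Benjamini-Hochberg adjusted p under 0.05 (limma) with a log2 fold change of at least 1 either way. Since the members were chosen for this contrast, nothing is read from their count against these shares. The fitted differences of the 7 ran from 9.31 to 11.24, and with an offset of 16 added to the linear signal in place of 1.42 from 6.88 to 8.88, since they rest on CDS signals below the dip. They are therefore not ranked. Genes outside the list had differences of the same size. The axon guidance gene Sema3e had 9.36 ± 0.71 (SE; 11.17, 12.26 and 12.96 in ES tumors and 1.29, 2.68 and 2.89 in CDS tumors), and Arxes1 had 9.20 ± 0.72.

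**Figure D2:**
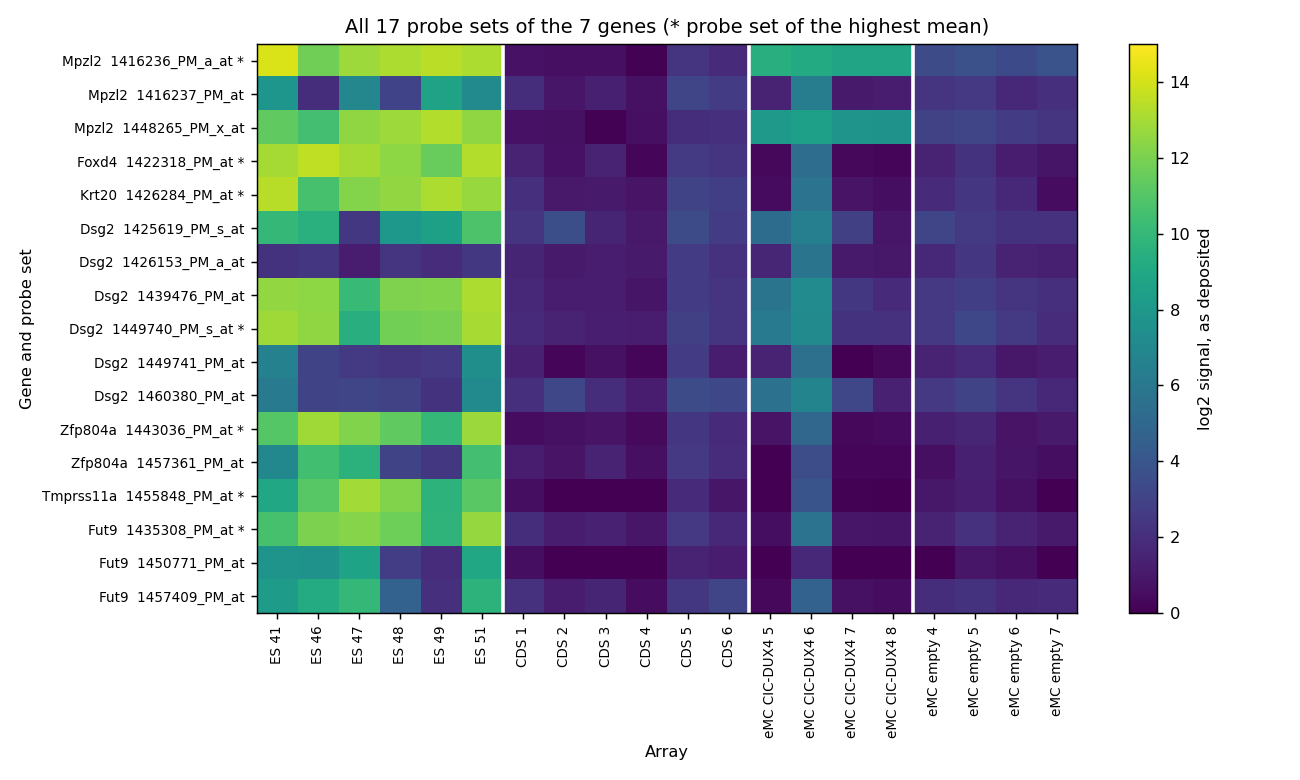
Log2 signal as deposited (colour) of all 17 probe sets (rows, an asterisk marks the one used for the gene) in the 20 arrays (columns, white lines part the groups). Probe sets of Mpzl2, Dsg2, Zfp804a and Fut9 disagree among ES tumors, CDS and eMC empty columns are dark throughout, and the column of eMC CIC-DUX4 6 is brighter than its neighbours for nearly every row.

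Against eMC empty the same 7 genes were again far higher in ES tumors. This comparison shares the ES arrays with the one above, so the values are given side by side and are no second line of support. The bounds were at least 76.7-fold for Mpzl2, 63.3-fold for Foxd4 and 49.7-fold for Krt20. They were at least 34.6-fold for Dsg2, 29.5-fold for Zfp804a, 25.6-fold for Fut9 and 18.3-fold for Tmprss11a. The bounds are smaller than against CDS tumors in part by construction, because the dips of the eMC empty arrays lie higher (mean 6.81 against 5.70 log2). The fitted log2 differences ran from 9.05 ± 0.68 for Dsg2 to 10.75 ± 0.49 for Foxd4 (SE). Mpzl2 had 9.31 ± 0.43 as deposited and 7.84 ± 0.46 after quantile normalization, which gives all arrays the same distribution. In this comparison 30.1% of all genes were called higher and 10.9% lower, and 17.3% and 18.9% after quantile normalization.

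A stricter description asks how far the lowest ES tumor lay above the highest of the other 14 arrays. This gap was positive for 4.11% of the genes tested and for all 7 members. It follows in part from the choice of members and is a description. The gap was 6.10 log2 for Foxd4, 5.11 for Tmprss11a, 5.04 for Zfp804a, 4.91 for Krt20 and 4.04 for Fut9. For these 5 the highest other array was eMC CIC-DUX4 6, where their signals lie below the median of the array, so the sizes have no order to be read. For Mpzl2 the gap was 2.33 (to eMC CIC-DUX4 5) and for Dsg2 2.30 (to eMC CIC-DUX4 6). Without eMC CIC-DUX4 6 the gaps of Foxd4, Zfp804a, Krt20, Fut9 and Tmprss11a were 8.96, 7.60, 7.53, 7.24 and 7.23, all measured to dim signals. Those of Mpzl2 (2.33) and Dsg2 (3.33) were measured to eMC CIC-DUX4 5, where both genes were above the dip.

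Outside the list, 5 genes with a wide gap were taken by rule. Neurog2, a proneural transcription factor, had a gap of 4.91 and read 12.29 to 12.94 in ES tumors. Nkx6-1, a homeodomain factor of the ventral neural tube and pancreas, had 4.90 (10.93 to 12.02). Pou3f1, a POU factor of early neural and Schwann cells, had 4.77 (12.84 to 13.68). Necab2, a calcium-binding protein of neurons, had 4.32 (11.19 to 11.95), and Apela, a secreted peptide hormone of early embryos, had 4.31 (10.31 to 11.87). For Neurog2 and Pou3f1 the highest other array was CDS 4, at 7.38 and 8.07, the only CDS tumor in which Neurog2 was above the dip. The other 3 had eMC CIC-DUX4 6 as the highest of the other arrays.

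Nkx6-1 and Apela were also the genes most like 5 of the 7 members in pattern. Over the 20 arrays Pearson's r was 0.997 between Foxd4 and Nkx6-1 and 0.995 between Foxd4 and Apela. Nkx6-1 came first for Zfp804a (0.994), Fut9 (0.993) and Tmprss11a (0.985), and Apela for Krt20 (0.992). Mpzl2 was most like Cxadr (0.988), a tight junction receptor, and Sfmbt2 (0.981), a Polycomb-type protein, both of which also had signal in CIC-DUX4 cultures. Cxadr read 10.71 to 11.27 in ES tumors, 8.76 to 8.91 in eMC CIC-DUX4 and 3.28 to 4.12 in eMC empty. Dsg2 was most like Frem2 (0.983), a basement membrane protein, and the transporter-family gene Slc35g1 (0.981). Among the 7 members the 21 pairs had r between 0.81 and 0.997, with a median of 0.957. All these coefficients are descriptions. They rest on 6 bright arrays set against 14 dim ones that share depth and scaling, and any gene confined to ES tumors would score high.

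Within the ES tumors the members did not vary as a block. Tumor by tumor, 3 orders can be told by eye, noted after the values had been seen and given no test. Foxd4, Zfp804a and Fut9 had ES 46, 47 and 51 as their 3 highest tumors and ES 49 as the lowest, on the probe set of the highest mean. For Foxd4 these tumors read 13.56, 12.99 and 13.28, level with ES 41 (12.99), against 11.49 in ES 49. For Zfp804a they read 12.87, 12.17 and 12.73 against 9.9985, and for Fut9 12.03, 12.28 and 12.62 against 9.73. On the 3 dimmer probe sets of Zfp804a and Fut9, ES 48 and 49 were both below the dip.

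Mpzl2 and Krt20 ran another way. Both had ES 41 highest (14.13 and 13.38), ES 49 second (13.46 and 13.17) and ES 46 lowest (11.74 and 10.62). On the second Mpzl2 set ES 46 was again lowest (10.51), but ES 49 led (13.30) and ES 41 was next to last (11.32). Thus the tumor with the least Zfp804a and Fut9 was among the 2 with most Krt20, and 1 of those with most Zfp804a had least Krt20. Tmprss11a followed neither order. It was highest in ES 47 (12.94) and ES 48 (12.15) and lowest in ES 41 (8.99). Dsg2 was set apart by ES 47, described below.

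**Figure D3:**
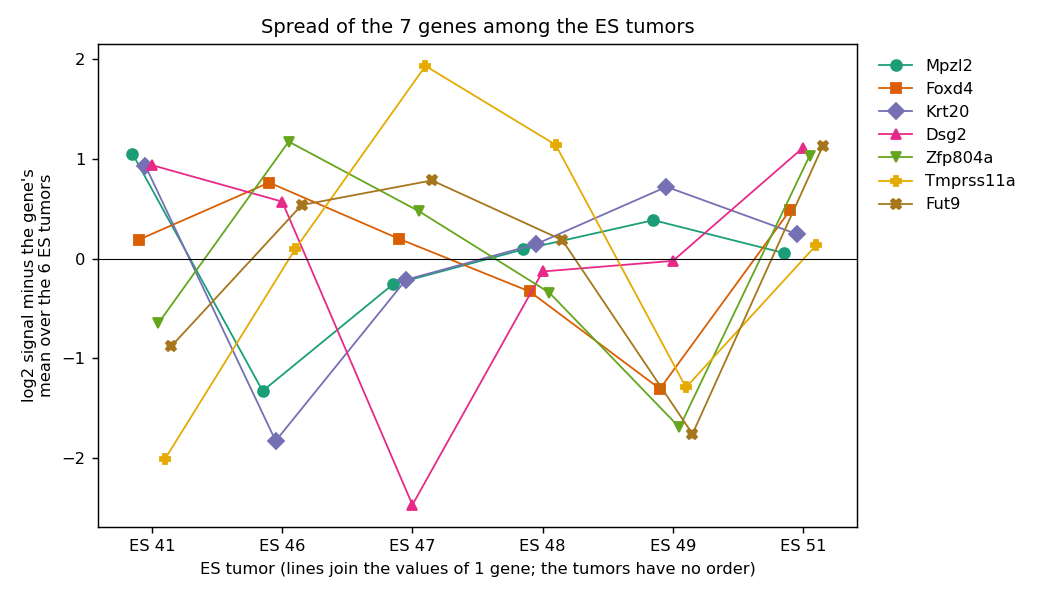
Log2 signal minus the gene's mean over the 6 ES tumors (vertical axis) for each tumor (horizontal axis), with 1 colour and marker per gene and lines joining the points of a gene only to guide the eye. Zfp804a, Fut9 and Foxd4 are lowest in ES 49, Mpzl2 and Krt20 in ES 46, Dsg2 in ES 47 and Tmprss11a in ES 41.

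Array measures differed among the ES tumors. Bright probe sets made up 27.9% (ES 48) to 40.5% (ES 47) of an array, and the dip lay between 4.30 (ES 51) and 5.45 (ES 48). The array medians ran from 1.94 to 2.54, the 75th percentiles from 7.52 (ES 48) to 8.65 (ES 47) and the Actb excess from 0.17 (ES 49) to 0.31 (ES 41). Summed signals of host cell markers differed too. The endothelial list ran from 8.26 in ES 41 to 11.96 in ES 46, the keratinocyte list from 8.44 in ES 46 to 13.72 in ES 48 and the skeletal muscle list from 4.04 in ES 51 to 17.61 in ES 48. The part of these array measures and markers in the order of the members was not tested.

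Because 4 of the 7 members are epithelial genes, skin of the host is the tissue to look at first. The log2 of the summed linear signals of 9 keratinocyte markers on the array was 8.44 to 13.72 in ES tumors and 5.20 to 8.63 in CDS tumors. Of the 7 of them tested, Krt10 and Krt15 were called higher in ES than in CDS tumors and 0 lower (limma). Over all genes 9.58% were called higher and 11.2% lower. The part of skin in the members' signals was not tested. Of the 9, Krt10 alone was above the dip in all 6 ES tumors, and Sfn and Ivl in none. The basal markers Krt5, Krt14 and Trp63 were each above the dip in 1 of 6 ES tumors, with medians of 1.98, 1.18 and 1.49. Krt1, Krt15 and Lor were above it in some of the ES tumors but not in all. The members Krt20, Dsg2, Mpzl2 and Tmprss11a were above the dip in all 6. That follows in part from their choice as genes bright in ES tumors, so nothing is read from the contrast. In ES 46, the tumor with the lowest keratinocyte sum, these 4 members read 10.62, 12.50, 11.74 and 11.10. Those are the lowest ES values of Krt20 and Mpzl2 but not of Dsg2 and Tmprss11a. Endothelial markers (7 on the array) summed to 8.26 to 11.96 in ES tumors and 12.12 to 13.07 in CDS tumors, macrophage markers (7) to 14.14 to 15.59 and 11.80 to 16.11. The cultures are not free of epithelial keratin either. Krt14 was above the dip on all 4 eMC empty arrays, and Krt5, Krt14, Krt10 and Trp63 in every eMC CIC-DUX4 array that has a dip.

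Other junction and epithelial genes were taken from lists of the members' relatives, which are tested here because the rule for the members did not use them, although the lists too were drawn up with earlier results of these data known. Some were bright in every ES tumor and some in only a few. Of 8 other desmosome genes tested, 3 were called higher and 0 lower in ES than in CDS tumors (limma), with a median log2 fold change of 2.29 against -0.02 for all genes. Over all genes 9.58% were called higher and 11.2% lower. Pkp1, plakophilin 1, which ties desmosomal cadherins to keratin, was the clearest, at 9.75, 12.08 and 12.29 in ES tumors and 1.62, 3.44 and 6.58 in CDS tumors. It rose by 7.73 ± 0.82 log2 (SE), with an adjusted p of 3.98e-06 (limma) and no overlap. Dsc2, desmocollin 2, the partner cadherin of Dsg2, rose by 4.09 ± 1.37 (adjusted p = 0.0406, limma), and Pkp4 by 1.99 ± 0.70 (adjusted p = 0.0478). Jup, plakoglobin, had 0.75 ± 1.10 (adjusted p = 0.643). After quantile normalization 5 of the 8 were higher, where 16.2% of all genes were called higher and 16.9% lower.

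Of 4 other keratins of simple epithelia tested, Krt18 was called, higher in ES tumors by 4.29 ± 1.46 (SE, adjusted p = 0.0430, limma). It was bright in 4 ES tumors (9.42 to 10.75) and dim in ES 47 and 48 (1.81 and 1.99). Krt7, of bladder and gland lining, was dim in all 12 tumors. Of 10 genes of epithelial identity, 3 were higher and 0 lower, against 9.58% and 11.2% of all genes, and after quantile normalization 6 were higher and 1 lower, against 16.2% and 16.9%. Esrp1, the splicing regulator of epithelia, rose by 5.96 ± 1.50 (adjusted p = 0.00949), Cdh1, E-cadherin, by 5.06 ± 1.63 (adjusted p = 0.0346) and Epcam by 2.90 ± 0.91 (adjusted p = 0.0303). Epcam lost its call after quantile normalization (2.03 ± 0.79, adjusted p = 0.0523). Its other probe set was farther apart, at 11.51 ± 1.93 in ES and 3.21 ± 1.32 in CDS tumors (SD, n = 6 each). The calls of Dsc2, Pkp4, Krt18, Cdh1 and Epcam were lost on leaving out any of 9, 9, 10, 8 and 5 of the 12 arrays. With each of the 12 left out in turn, their fold changes ran from 2.96 to 4.97, 1.45 to 2.33, 3.64 to 5.33, 4.09 to 6.24 and 2.39 to 3.49. The calls of Pkp1 and Esrp1 were kept throughout.

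The ES tumor with least Dsg2 was dim in several of these genes. In ES 47 Dsg2 read 9.45, against 11.79 to 13.04 in the other 5, and it was also lowest there on the other 2 probe sets that were above the dip in at least 5 ES tumors. Cdh1 read 0.80 in ES 47, against 12.12, 7.48, 9.61, 1.60 and 12.38 in ES 41, 46, 48, 49 and 51. Esrp1 read 1.42 in ES 47 and 6.15 to 12.54 in the others. Krt18 read 1.81 and Dsc2 0.19, both dim, as they were in ES 48, and Dsc2 and Cdh1 were dim in ES 49 too. Pkp1 (11.90) and Krt20 (12.23) were not low there. ES 41 and 51, which had most Dsg2 (12.86 and 13.04), also had most Cdh1 (12.12 and 12.38) and Esrp1 (12.54 and 12.15). Krt20, Mpzl2 and Tmprss11a were also bright in ES 47 and 49, where E-cadherin was dim. They were chosen as bright in ES tumors, so nothing is read from this.

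**Figure D4:**
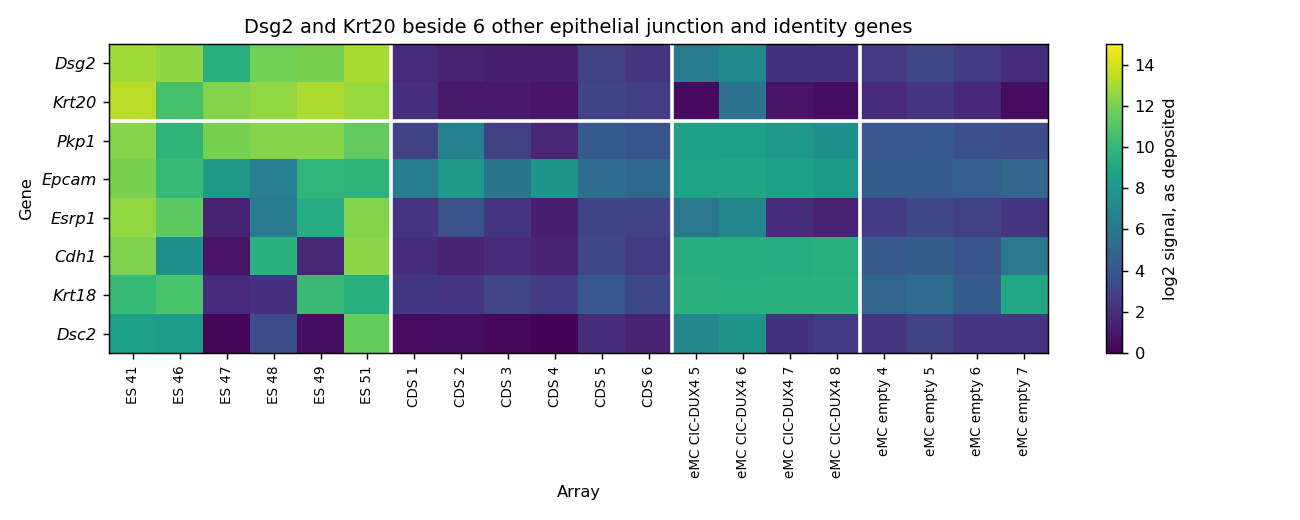
Log2 signal as deposited (colour) of Dsg2 and Krt20 (top rows) and 6 epithelial genes (lower rows) in the 20 arrays (columns, white lines part the groups). Dsg2, Krt20 and Pkp1 are bright in all 6 ES tumors, while Esrp1, Cdh1, Krt18 and Dsc2 are dim in ES 47, and all but Esrp1 in at least 1 other ES tumor.

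Relatives of the other members gave mixed results. Mpzl1, the family gene nearest to Mpzl2 on the array, ran the other way, lower in ES than in CDS tumors by a log2 change of -1.54 ± 0.28 (SE, adjusted p = 0.000798, limma). Of 22 other forkhead genes, 2 were higher and 3 lower, near the shares over all genes (9.58% and 11.2%). After quantile normalization 5 were higher and 6 lower, against 16.2% and 16.9% of all genes. Foxq1, which regulates epithelial and hair genes, rose by 5.86 ± 1.21 (adjusted p = 0.00230) but was dim in ES 46 (0.72). Foxb1, of the developing brain, rose by 4.90 ± 0.99 (adjusted p = 0.00195), and Foxc1, of mesenchyme and vessels, changed by -5.07 ± 1.10 (adjusted p = 0.00349). Of 3 other transmembrane serine proteases tested, 0 were called (limma). St14, matriptase, had -2.62 ± 1.46 (adjusted p = 0.195), and was bright in ES 41 and 51 alone of the ES tumors (10.08 and 9.08). After quantile normalization 1 of the 3 was lower, St14 (-2.70 ± 0.93, adjusted p = 0.0310).

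Of 11 other fucosylation genes tested, 0 were higher and 2 lower in ES than in CDS tumors. After quantile normalization 1 was higher, Fut10, and 2 others lower, Fut11 and Pofut2. Over all genes 9.58% were called higher and 11.2% lower, and 16.2% and 16.9% after quantile normalization. Fut4, the other maker of Lewis x, changed by -1.78 ± 0.63 (adjusted p = 0.0491, limma) and the GDP-fucose transporter Slc35c1 by -1.59 ± 0.55 (adjusted p = 0.0446). Neither held after quantile normalization (-0.40 and -0.68), and leaving out any of 10 and 8 of the 12 arrays ended them. Fut4 read 1.99 to 2.95 in ES tumors, below the dip. Of 11 Ewing sarcoma markers tested, Bcl11b (4.44 ± 1.38, adjusted p = 0.0296) and Pappa (3.52 ± 1.12, adjusted p = 0.0331) were higher and Fli1 (-3.60 ± 0.37, adjusted p = 3.02e-06) and Id2 lower. Bcl11b was bright in 5 ES tumors and read 2.28 in ES 51, and its call and that of Pappa were lost without any of 8 and 6 arrays.

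Against eMC empty the lists gave other counts, set beside 30.1% of all genes called higher and 10.9% lower. After quantile normalization these shares were 17.3% and 18.9%. Desmosome genes were 3 higher and 1 lower of 8, led by Pkp1 (7.65 ± 0.54, SE, adjusted p = 1.24e-06, limma) and Jup (3.29 ± 0.90, adjusted p = 0.00965). After quantile normalization 2 desmosome genes were higher and 1 lower. Simple keratins were 0 higher and 1 lower, Krt7 (-2.07 ± 0.21, adjusted p = 1.78e-05), and epithelial identity genes 2 higher, Esrp1 (5.89 ± 1.81, adjusted p = 0.0175) and Epcam (4.73 ± 0.93, adjusted p = 0.00138), which after quantile normalization had 1.75 ± 0.89 (adjusted p = 0.127) and lost its call. Mpzl1 was higher here (1.82 ± 0.27, adjusted p = 0.000226). Forkhead genes were 9 higher and 2 lower of 22, led by Foxf1 of gut and lung mesenchyme (7.36 ± 1.34), Foxq1 (6.05 ± 1.44) and Foxb1 (5.26 ± 1.04). After quantile normalization they were 5 higher and 6 lower. Fucosylation genes were 3 higher, Gmds, Fut8 and Gfus (3.19 ± 1.22, 2.00 ± 0.66 and 1.75 ± 0.65), and 0 of 11 higher and 4 lower after quantile normalization. Serine proteases were again 0 of 3 (1 higher, St14, after quantile normalization at an adjusted p of 0.0354). Ewing sarcoma markers were 3 higher and 5 lower of 11, from Bcl11b (5.70 ± 1.54) and Fli1 (5.50 ± 0.60) to Steap2 (-6.25 ± 0.96). After quantile normalization 3 were again higher and 5 lower, with 2 of the higher ones called under both.

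Setting eMC CIC-DUX4 beside eMC empty asks whether the fusion changes these genes within 48 hours, and the choice of members did not use it. Mpzl2 rose. The other 6 were not called, and all of them but Dsg2 were dim on every culture array that has a dip. The 4 CIC-DUX4 arrays of Mpzl2 (8.75 to 9.41) lay above all 4 empty-vector arrays (3.38 to 3.85). Its log2 fold change was 5.26 ± 0.32 (SE), with an adjusted p of 8.28e-06 (limma, Benjamini-Hochberg), and its signal was at least 4.63-fold higher. The shift must be read against the whole array. The median of all genes was 2.07 as deposited, 51.1% of genes were called and 46.4% called higher, and 47.8% had all CIC-DUX4 arrays above all empty-vector arrays. After quantile normalization, where the median of all genes was 0.01 and 8.13% were called higher, Mpzl2 rose by 2.39 ± 0.32 (adjusted p = 3.79e-05, limma). Scaling each array to the same median ended its call (3.69 ± 1.27, adjusted p = 0.202), as it did those of most genes. Without arrays 5 and 6, those of high median, it was 5.00 ± 0.37 (adjusted p = 0.000559).

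The second probe set of Mpzl2 rose likewise, by 5.00 ± 0.38 (SE, adjusted p = 1.58e-05 with each probe set fitted on its own, limma). It read 8.12, 8.45, 7.75 and 7.69 against 2.90, 3.11, 2.59 and 2.31. The third did not, with 1.51, 6.28, 1.11 and 1.21 against 2.23, 2.47, 1.75 and 2.07 (0.50 ± 1.24, adjusted p = 0.720). The mean over the 3 probe sets rose by 3.59 (adjusted p = 0.000222). Mpzl2 was thus higher in CIC-DUX4 cultures than in empty-vector cultures on 2 of 3 probe sets, and dim in CDS tumors on all 3. In ES tumors it was higher than in either culture group with both of those probe sets.

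Dsg2 had the next largest value, 1.73 ± 1.12 (SE, adjusted p = 0.206, limma), which rests on arrays 5 and 6. Without them it was -0.32 ± 0.31, and after quantile normalization 0.23 ± 0.19 (adjusted p = 0.336). The other 5 ran from 0.33 ± 1.41 for Tmprss11a to 0.54 ± 1.27 for Fut9, with adjusted p from 0.705 to 0.830. These 5 owe their positive signs to array 6. Without that array they were -0.64 for Foxd4, -0.63 for Krt20, -0.49 for Fut9, -0.40 for Zfp804a and -0.35 for Tmprss11a. After quantile normalization all 6 lay between -0.12 and 0.23. They were dim in eMC empty and, leaving Dsg2 aside, in every eMC CIC-DUX4 array with a dip, so a change below the dip could not have been seen. Over the 7 members the median was 0.48 as deposited, against 2.07 for all genes, and 0.04 after quantile normalization, against 0.01. Nothing is read from this, since 5 of the 7 were dim in every culture array that has a dip and passed the filter on low values through the ES tumors.

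Among relatives of the members, counts in the cultures are set beside the 46.4% of all genes called higher there (8.13% after quantile normalization). Called higher were 6 of 8 desmosome genes, 3 of 4 simple keratins, 4 of 10 epithelial identity genes, 12 of 22 forkhead genes and 5 of 11 fucosylation genes, with 0 lower in each (limma). Of the 3 serine proteases 0 were called, nor was Mpzl1 (0.87 ± 0.34, SE, adjusted p = 0.0504), and of 11 Ewing sarcoma markers 5 were higher and 1 lower. After quantile normalization the calls came to 1 epithelial identity gene, 1 forkhead gene and 1 Ewing sarcoma marker, all higher, and 0 in the other lists. The epithelial gene was Cdh1, at 9.30 to 9.46 with CIC-DUX4 and 3.92 to 6.00 without. It rose by 4.64 ± 0.46 as deposited (adjusted p = 3.08e-05, limma) and by 1.46 ± 0.16 after quantile normalization (adjusted p = 7.57e-06). Like Mpzl2, Cdh1 was dim in all 6 CDS tumors (1.42 to 3.21).

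**Figure D5:**
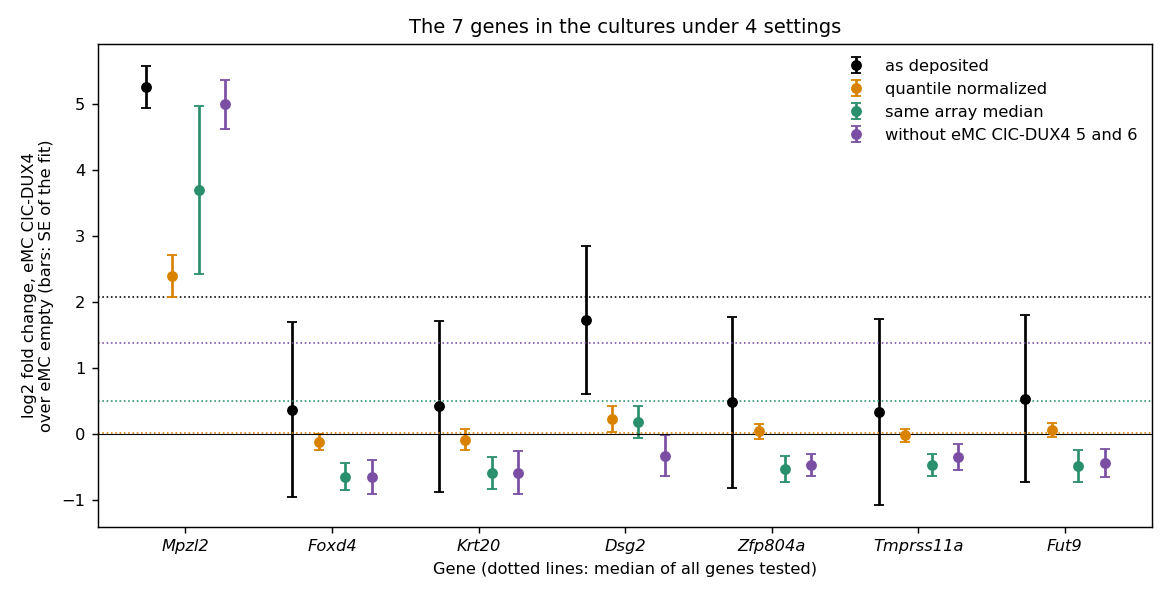
Log2 fold change of eMC CIC-DUX4 over eMC empty (vertical axis, bars are SE of the fit) for the 7 genes under 4 settings (colours), with the median of all genes tested as a dotted line of the same colour. Mpzl2 lies above that median under all 4 settings (5.26, 2.39, 3.69 and 5.00), and the other 6, not called under any of them, lie between 0.33 and 1.73 as deposited.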

How the data were processed

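Total RNA of 20 mouse samples was hybridised to Affymetrix perfect-match arrays. The authors deposited log2 signals. MAS5 is the tool in the submitters' processing notes, with no version or settings in the sources used here. After 2 to the power of each value had been taken, 1.42 (0.25 of the middle array median) was added and log2 taken again. Of 45141 probe sets 104 controls were left out; 28898 had 1 gene symbol in the platform annotation, 551 several and 15588 none. Probe sets exceeding the array median on 4 or more of 20 arrays stayed (12343 genes), and each gene was read by its probe set of the highest mean. The number of arrays limits the precision.

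Groups came from sample titles. For each comparison limma 3.58.1 in R 4.3.3 fitted both groups alone, with a trended eBayes step and two-sided tests. Calls needed a log2 fold change of 1 or more either way besides a Benjamini-Hochberg adjusted p under 0.05. The steps were tested on simulated data. A fold "at least" divides by a floor: on each dim array the dip (bandwidth 0.35), or the signal where higher, averaged. Signals below the dip have no order.

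The members and lists were chosen with earlier results of these data known. Named are the 7 members, the 2 genes most like each over 20 arrays, the 5 other genes with the largest gap between ES tumors and all else, and up to 3 called genes of each list (or the 1 of the highest mean), without predicted or clone names. Id2, Krt15, Fut10, Fut11, Pofut2, Sema3e, Arxes1, and Cdh1 in the cultures were named after their values were seen. Alternatives were another offset, no filter, quantile normalization, the same median for each array, other summaries of probe sets, all groups in 1 fit, the replicate number as a block, and arrays left out. Promoters are RefSeq's, matched by symbol.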

Additional observations from a re-analysis of the deposited data

Results flagged for a closer look

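In eMC CIC-DUX4 6, 5 genes stood far above the other 3 arrays of their group. Foxd4 read 5.39 log2 there against at most 0.33, Krt20 5.71 against 0.77 and Zfp804a 4.96 against 0.79. Tmprss11a read 3.89 against 0.07 and Fut9 5.70 against 0.89. All 5 values come from 1 array, the one with no dip and a median log2 signal of 7.03. Each of these signals is below that median.

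Dsg2 read 9.45 in ES 47, against 11.79 to 13.04 in the other 5 ES tumors. Each of the 6 values lies above its dip. The gap to the nearest tumor, divided by the range, was 0.653, just over the limit of 0.625 for 6 samples. In all, 28 sets (7 genes in 4 groups) were looked at and 6 held such a value. Chance gives one in about 5% of independent sets, but these sets share arrays and 5 of the 6 values come from eMC CIC-DUX4 6. Nothing is therefore read from the count.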

How the results depend on the processing

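All 7 members stayed higher in ES tumors under every alternative run, but the size of the log2 difference depends on the offset and the probe sets. Against CDS tumors it ran from 9.31 to 11.24 as reported, 6.88 to 8.88 with an offset of 16, 5.76 to 10.70 with the mean over probe sets and 10.27 to 12.20 with the same array median. Against eMC empty it ran from 9.05 to 10.75, 6.87 to 8.57 with that offset and 5.53 to 10.75 with that mean. Scaling matters most in the cultures. There 6303 genes were called as deposited (5733 higher, 91.0%), 1597 after quantile normalization (1003 higher, 62.8%) and 14 with the same array median (5 higher, 35.7%). Leaving out single arrays gave 5286 to 6938. In ES against CDS tumors 2564 were called (46.1% higher), 4086 after quantile normalization (49.0%), 3170 with the same median (83.9% higher, median of all genes 1.12), and 1818 to 2833 without single arrays. Against eMC empty 5057 were called (73.4% higher), 4464 after quantile normalization (47.8%) and 4111 to 5440 without single arrays. The cause of these shifts was not tested.

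In the cultures these values turned negative, and the cause was not tested. After quantile normalization Foxd4 had -0.12, Krt20 -0.081 and Tmprss11a -0.020. With the same array median Foxd4 had -0.65, Krt20 -0.59, Zfp804a -0.53, Fut9 -0.49 and Tmprss11a -0.47, none called. Without the 3 arrays of high median Foxd4 had -0.65, Krt20 -0.58, Zfp804a -0.47, Fut9 -0.43, Tmprss11a -0.34 and Dsg2 -0.32. Without single arrays Foxd4 ran from -0.64 to 0.72, Krt20 from -0.63 to 0.80, Zfp804a from -0.40 to 0.81, Tmprss11a from -0.35 to 0.57 and Fut9 from -0.49 to 0.91. In ES against CDS tumors Krt7 turned from -0.20 to 0.27 (quantile) and 0.55 (same median), Foxf1 from 0.05 to -0.014 (quantile) and -0.14 (mean over probe sets; -0.34 to 1.23 without single arrays), and Fut8 from 0.41 to -0.33 (quantile; -0.28 to 0.71 without single arrays), none called. Against eMC empty Krt18 turned from 1.60 to -0.97 and Pappa from 0.88 to -1.20 after quantile normalization, again not called.

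The replicate number as a block gave 6178 calls in the cultures and 5.30 for Mpzl2 (adjusted p = 7.83e-05, limma). Same-numbered arrays 5, 6 and 7 correlated at 0.38, -0.19 and 0.38 in their deviations as deposited. After quantile normalization the values were 0.002, -0.008 and 0.003. Whether the numbers pair the samples cannot be told from these values, since those as deposited also carry the shape of each array. No paired analysis was possible for the tumors because the groups share no numbers.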
